A study of Arabidopsis thaliana with 14 samples.

Results

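Adding hpr1-6 to pho1-7 changed the RNA of a large share of root genes in pots. The comparison rests on 4 of the 14 samples of the series, 2 of pho1-7 hpr1-6 and 2 of pho1-7, chosen by their labelled genotype and by growth in pots. All 4 were roots of plants of the Columbia (Col-0) ecotype, 3 weeks old, grown in fertilized granules under long days. Both genotypes carried pho1-7, a T-DNA insertion in PHO1 that removed the second exon, so the labelled difference between them is the second mutation. The paper reported that with this mutation transcription runs on past a terminator inside the T-DNA. By its account most PHO1 transcripts then lack only the missing exon, and shoot growth is partly restored. Whether a change in RNA followed from loss of HPR1 itself or from altered PHO1 and growth was not tested. The second mutation, hpr1-6, is 1 T-DNA insertion line of HPR1 and no complemented line was sequenced. The labels write the allele as hpr1-5, and the study's name hpr1-6 is used here. The other pot samples, 2 of pho1-7 tex1-4 and 2 of Col-0, entered the same fit and are given beside the results. On plates, 3 samples of tex1-4 and 3 of Col-0, roots of seedlings 10 days old by the labels, form a separate experiment. The paper gives a younger age for them.

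HPR1 and TEX1 are subunits of THO, a nuclear complex that binds RNA polymerase II transcripts as they are made and hands them to the export factors UAP56 and ALY. In plants THO has also been tied to splicing, small RNA production and the ending of transcripts. PHO1 exports phosphate into the root xylem, and pho1 mutants therefore have shoots short of phosphate. Roots read the phosphate status through SPX proteins and PHR1-type transcription factors, and through miR399, which silences PHO2.

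The values are counts of reads per gene, shown as CPM, the reads of a gene scaled to 1000000 reads of the library after TMM normalization. These are levels of 1 gene across samples and are not scaled by gene length. Between 60619041 and 70019214 reads fell on genes in the 4 samples, which gave 21972 genes with enough reads for a test. The 2 samples of a genotype differed by more than counting noise (chi-square per degree of freedom 20.7 in pho1-7 hpr1-6 and 19.5 in pho1-7), so each counted as a sample. The labels do not say whether the samples came from separate pools of plants, so the p-values measure the spread between these samples, which may be technical. Of the 8 root markers, 7 were at 1 CPM or more in both samples of both genotypes. The 13 leaf photosynthesis markers summed to between 127.6 and 287.7 CPM in pho1-7 hpr1-6 and between 211.6 and 238.2 CPM in pho1-7, and edgeR called none of the 11 tested, at an adjusted p under 0.1 or an unadjusted p under 0.05, nor did DESeq2. The root marker PYK10, a beta-glucosidase of endoplasmic reticulum bodies, was at 558 and 559 CPM in pho1-7 hpr1-6, against 970.1 and 1089 CPM in pho1-7 (log2 fold change -0.88, adjusted p = 0.0011). RNA per cell and the number of cells of a type cannot be told apart in such whole-root samples.

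The mutated genes were read first. HPR1 was at 11.8 and 12.3 CPM in pho1-7 hpr1-6, against 33.8 and 36.1 CPM in pho1-7, a 2.91-fold fall (log2 fold change -1.54, standard error 0.06, edgeR adjusted p = 7.7e-05). Reads on HPR1 therefore remained in the double mutant, at about the same level in both samples. HPR1 lies on chromosome 5 (TAIR10.1, 3066562 to 3070989, plus strand) and has 20 exons. The primers that the study used to genotype hpr1-6 show which stretch of the gene was tested for the insertion. They matched 1 place each, the left one across an edge of exon 13 and the right one inside exon 18, 1070 bases apart from end to end. In lower case throughout, from 5′ to 3′, they read:
left primer, chr5:3069036-3069056, plus strand: gtttaggcaccagggaagaac
right primer, chr5:3070085-3070105, minus strand: ttctatgccagctgatggatc

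PHO1, counted over its remaining exons, was at 312 and 275 CPM in pho1-7 hpr1-6, against 199.6 and 188 CPM in pho1-7. The samples did not overlap and the rise was 1.52-fold (log2 fold change 0.60, standard error 0.09, adjusted p = 0.0023). Col-0 held 1028 and 975 CPM, above every mutant sample. TEX1, which is intact in both genotypes, was at 12.8 and 13.1 CPM in pho1-7 hpr1-6 and at 12.3 and 13.7 CPM in pho1-7 (adjusted p = 0.96).

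Across all genes, 4652 were higher and 4398 lower in pho1-7 hpr1-6 than in pho1-7 at an adjusted p under 0.1 by edgeR's quasi-likelihood test, 21.2% and 20.0% of the 21972 genes tested. Most of these changes were small. Of the genes that rose, 3195 (68.7%) did so by less than 1.5-fold, and of those that fell 3016 (68.6%). Over 2-fold, 599 genes rose and 541 fell, 2.73% and 2.46% of the genes tested. In all of the over-2-fold calls both samples of one genotype lay above both of the other. A call with 2 samples a genotype nearly requires that, so it is no further support for the calls. Of these genes, 253 of the risen and 223 of the fallen had a mean under 1 CPM. The median log2 fold change of all genes was 0.01, which the normalization sets near 0.

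**Figure D1:**
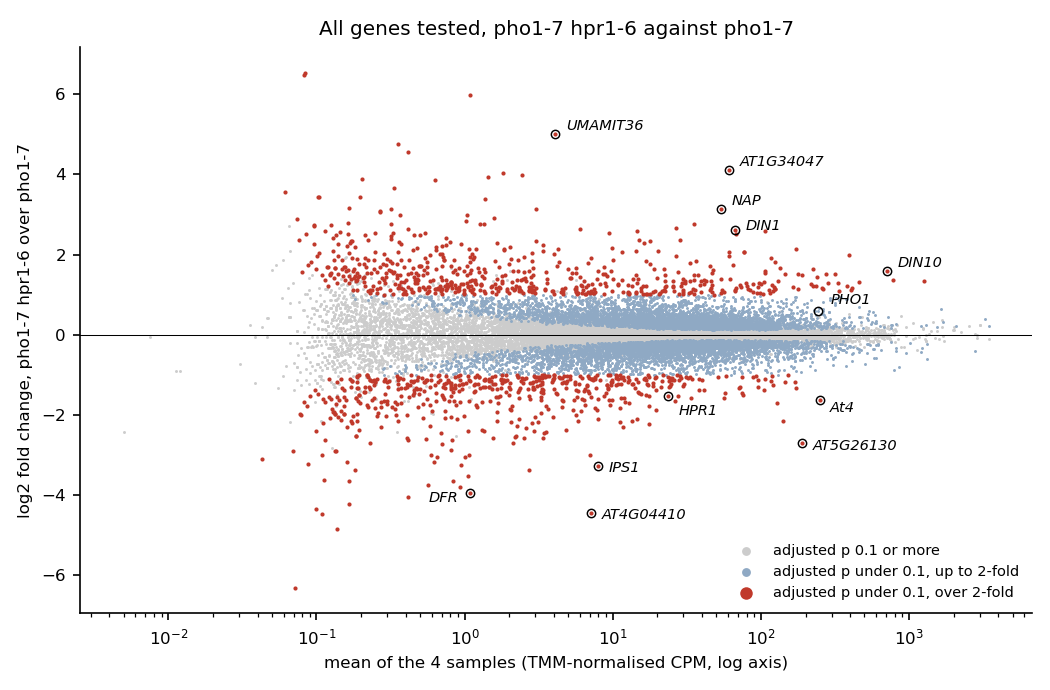
Log2 fold change of pho1-7 hpr1-6 over pho1-7 (vertical axis) against the mean CPM of the 4 samples (log axis), with 1 point for each of the 21972 genes tested. Called genes spread to both sides in like numbers, and named genes such as UMAMIT36, NAP and DIN1 above and IPS1, DFR and AT4G04410 below lie far from the bulk.

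The largest rises among genes with at least 5 CPM included transporters and genes known from dark-treated or ageing tissue. UMAMIT36, a member of the EamA-like transporter family, was at 10.1 and 5.85 CPM in pho1-7 hpr1-6, against 0.165 and 0.321 CPM in pho1-7 (log2 fold change 5.01, standard error 0.45, adjusted p = 0.00026). Col-0, at 2.90 and 3.65 CPM, stood between them. NAP, a NAC transcription factor known for leaf senescence, reached 103 and 89.5 CPM in pho1-7 hpr1-6, against 14.1 and 7.97 CPM in pho1-7, an 8.73-fold rise. CHX17, a cation/proton exchanger, was at 51.3 and 41.3 CPM against 8.43 and 6.20 CPM, a 6.34-fold rise. AT5G66650, annotated as a calcium uniporter, was at 63.3 and 59.2 CPM in pho1-7 hpr1-6, against 9.66 and 8.46 CPM in pho1-7. GAT1_2.1, a glutamine amidotransferase-like gene, was at 193 and 174 CPM in the double mutant and at 36.9 and 24.7 CPM in pho1-7. For NAP, AT5G66650 and GAT1_2.1, Col-0 lay within or close to the range of pho1-7, with 15.4 and 11.3, 9.34 and 8.06, and 50.9 and 35.2 CPM. The defensin-like gene AT1G34047 was different in this. It held 83.0 and 147 CPM in pho1-7 hpr1-6 and only 7.95 and 5.40 CPM in pho1-7, while Col-0 held 84.6 and 164 CPM, so pho1-7 was the low group and the double mutant overlapped Col-0. The other members of the 10 largest rises were AT1G17345 (SAUR-like), AT3G62455, DIN1 and AT4G26288, with log2 fold changes between 2.60 and 3.13.

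The largest falls were more mixed. AT4G04410, of unknown function, was at 0.601 and 0.65 CPM in pho1-7 hpr1-6, against 13.4 and 14.0 CPM in pho1-7, a 21.9-fold fall. IPS1, a non-coding RNA of phosphate starvation described below, fell 9.70-fold. RL3, a RAD-like MYB gene, was at 1.11 and 2.03 CPM in pho1-7 hpr1-6, against 11.01 and 14.1 CPM in pho1-7, and stood at 0.0853 and 0.307 CPM in Col-0. For IPS1 and RL3 pho1-7 was therefore the high group. LAS1, lanosterol synthase, fell to 5.93 and 6.42 CPM, against 32.0 and 25.7 CPM in pho1-7 and 54.7 and 53.6 CPM in Col-0. CYP76G1, a cytochrome P450, followed the same order, with 4.09 and 3.83 CPM in the double mutant, 22.6 and 16.7 CPM in pho1-7 and 35.1 and 32.9 CPM in Col-0. The PR-1-like gene AT5G26130 was the most abundant of the falls, at 56.2 and 43.6 CPM in pho1-7 hpr1-6, against 419.5 and 236 CPM in pho1-7. AT4G19800 (chitinase domain), KIN1 (cold and abscisic acid response), MLP28 and AT5G43590 (acyl hydrolase family) completed the 10, with log2 fold changes between -2.58 and -2.37.

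**Figure D2:**
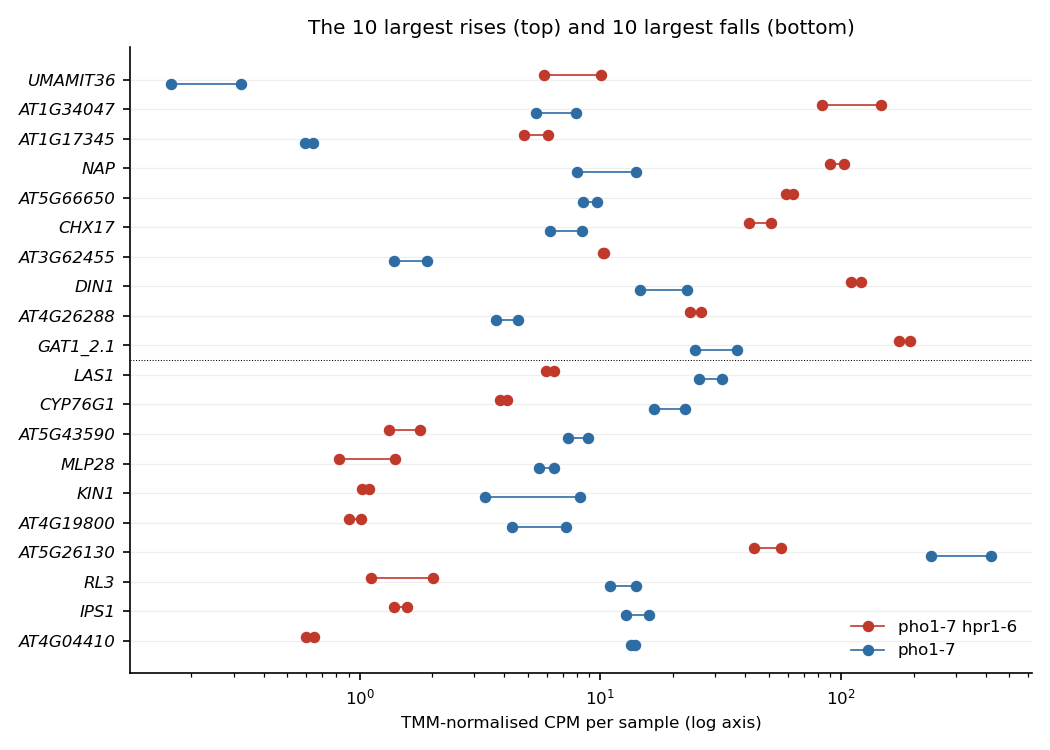
CPM in each sample (log axis) of the 10 genes with the largest rise, above the dotted line, and the 10 with the largest fall, below it, for pho1-7 hpr1-6 (red, drawn above) and pho1-7 (blue). In each of the 20 genes the 2 red points lie apart from the 2 blue ones, which the rule for choosing them required, and levels run between 0.165 CPM for UMAMIT36 and 419.5 CPM for AT5G26130, both in pho1-7.

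The smallest p-values picked out genes with tight replicates and moderate changes. AT1G11070, a hydroxyproline-rich glycoprotein gene, was at 16.0 and 16.3 CPM in pho1-7 hpr1-6, against 2.77 and 2.75 CPM in pho1-7 (log2 fold change 2.55, standard error 0.09, adjusted p = 6.4e-05). BRG3, a RING-type protein, was at 124 and 126 CPM, against 52.3 and 52.3 CPM. AT5G59770 rose 4.29-fold, and AT2G38820 and AT1G76570 by 1.39 and 1.70 on the log2 scale. On the falling side, beside HPR1 and LAS1, REV1, a translesion DNA polymerase, was at 55.7 and 55.7 CPM in pho1-7 hpr1-6, against 139.9 and 134 CPM in pho1-7. AT4G36980, related to SR splicing regulators, was at 69.0 and 75.3 CPM against 168 and 174 CPM, and the kinesin-like AT5G27950 at 57.2 and 57.6 CPM against 121 and 119.9 CPM.

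Several phosphate genes that were high in pho1-7, such as IPS1, At4, MGD3 and PPSPASE1, fell when hpr1-6 was added. Not all did so, since PHT1;4, at 54.5 and 46.8 CPM in pho1-7 hpr1-6, 44.7 and 40.3 CPM in pho1-7 and 27.5 and 26.3 CPM in Col-0, was called higher (log2 fold change 0.25, adjusted p = 0.066), and SPX2, GDPD1 and SQD2 were not called (adjusted p = 0.14, 0.13 and 0.61). IPS1, a non-coding RNA that binds miR399 without being cut, was at 1.39 and 1.57 CPM in pho1-7 hpr1-6, against 15.9 and 12.8 CPM in pho1-7 (log2 fold change -3.28, standard error 0.20, adjusted p = 9.8e-05). Col-0 stood at 0.952 and 0.737 CPM. Its relative At4 (AT5G03545) was at 127 and 118 CPM in pho1-7 hpr1-6, against 422 and 329.7 CPM in pho1-7 and 169 and 163 CPM in Col-0, a 3.07-fold fall that took it under the Col-0 samples. The sequences that define this module are shown to place the 2 RNAs beside their partner. In the miRNA, capitals mark the seed, bases 2 to 8, and in the targets they mark the bases that pair with it:
miR399b, chr1:23345387-23345407, minus strand: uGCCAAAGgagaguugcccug
miR399f, chr2:14445084-14445104, plus strand: uGCCAAAGgagauuugcccgg
IPS1 site, chr3:3051224-3051247, plus strand: uugggcaacuucuaucCUUUGGCa
At4 site, chr5:895149-895172, plus strand: uugggcaacuucgaucCUUUGGCa
PHO2 site, chr2:14281884-14281904, minus strand: uugggcaaaucucCUUUGGCa

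All 6 annotated miR399 genes share that seed, and each site pairs with it without a mismatch. The IPS1 and At4 sites have 3 unpaired bases opposite the middle of the miRNA, where a target would be cut, and the PHO2 site has none. PHO2, a ubiquitin-conjugating enzyme that removes phosphate transporters, was at 61.0 and 64.8 CPM in pho1-7 hpr1-6, against 54.8 and 54.0 CPM in pho1-7 (1.16-fold, adjusted p = 0.030). Both lay far under Col-0, at 713 and 722 CPM. The rise of PHO2 lost its call without pho1-7 hpr1-6 replicate 2 (log2 fold change 0.17, adjusted p = 0.14). The miR399 precursors themselves had too few reads to be tested, and their raw reads were looked up after the values of IPS1 and PHO2 had been seen. MIR399d had 4 and 4 reads in pho1-7 hpr1-6, against 21 and 20 reads in pho1-7, and MIR399c had 8 and 7 against 35 and 24. MIR399b had 8 and 8 reads against 10 and 11. None of these 3 had a read in Col-0.

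Further along the response, SPX3, a phosphate sensor protein, was at 0.63 and 0.665 CPM in pho1-7 hpr1-6, against 1.90 and 1.53 CPM in pho1-7. SPX1 fell less, to 42.01 and 43.1 CPM against 55.7 and 50.2 CPM in pho1-7 (1.24-fold, adjusted p = 0.042), and stayed above Col-0, at 18.9 and 17.5 CPM. Its call was lost without either sample of pho1-7 hpr1-6 and without pho1-7 replicate 1, with log2 fold changes of -0.30, -0.33 and -0.24. Of the 10 sensing and signalling genes, 4 fell and 1 rose. Among all genes 20.0% fell and 21.2% rose, the shares to set beside this count and that of the lipid genes. MGD3, a galactolipid synthase that replaces phospholipids, was at 2.46 and 2.04 CPM in pho1-7 hpr1-6, against 11.5 and 6.52 CPM in pho1-7 and 1.99 and 2.59 CPM in Col-0. Of the 13 lipid remodelling genes tested, 5 fell and 2 rose, one of them GDPD2, a glycerophosphodiesterase, with 342 and 358 CPM in pho1-7 hpr1-6 against 127 and 130.3 CPM in pho1-7. GDPD2 was not raised in pho1-7, since Col-0 held 139.6 and 123 CPM. Without pho1-7 hpr1-6 replicate 2 or without pho1-7 replicate 1, 3 of the lipid genes fell in place of 5.

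Among the 14 phosphate scavenging genes tested, 8 fell, beside 20.0% of all genes. None rose at an adjusted p under 0.1 or an unadjusted p under 0.05 by edgeR, nor by DESeq2. PPSPASE1, an enzyme that splits pyrophosphate or phosphoesters, was at 6.43 and 10.30 CPM in pho1-7 hpr1-6, against 35.5 and 25.7 CPM in pho1-7 and 7.23 and 8.03 CPM in Col-0. The other falls were under 2-fold, among them the purple acid phosphatase PAP17 and PECP1. Leaving out pho1-7 hpr1-6 replicate 1 or pho1-7 replicate 1 left 4 of the 8. The transporters did not move as a group, with 6 of 14 higher and 4 lower, beside 21.2% and 20.0% of all genes. PHT1;8 was at 1.66 and 1.31 CPM in pho1-7 hpr1-6, against 0.709 and 0.565 CPM in pho1-7, and PHT1;5 at 0.806 and 0.76 CPM against 0.346 and 0.336 CPM, 2.34-fold and 2.29-fold rises at low levels. The main root uptake transporter PHT1;1 was at 349 and 259.9 CPM in pho1-7 hpr1-6 and at 328 and 264 CPM in pho1-7 (adjusted p = 0.87). PHO1;H1, the closest relative of PHO1, fell to 88.4 and 67.5 CPM, against 119 and 109.6 CPM. The counts of transporters moved with single samples, to 3 higher without pho1-7 hpr1-6 replicate 1 or pho1-7 replicate 2, and to 2 lower without pho1-7 hpr1-6 replicate 2 or pho1-7 replicate 1.

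**Figure D3:**
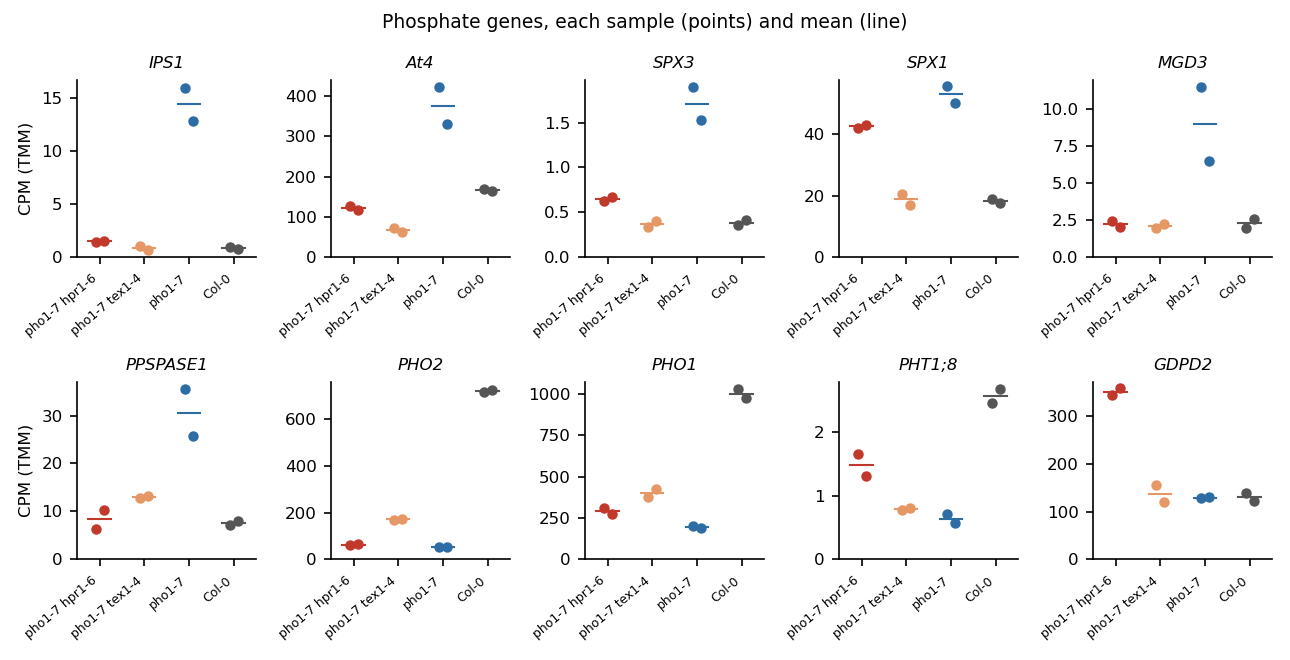
CPM of 10 phosphate genes in the 2 samples (points, mean as a line) of pho1-7 hpr1-6, pho1-7 tex1-4, pho1-7 and Col-0, with a vertical axis from 0 for each gene. IPS1, At4, SPX3, MGD3 and PPSPASE1 peak in pho1-7 and are low in both double mutants, PHO2 is high in Col-0 alone, and GDPD2 is high in pho1-7 hpr1-6 alone.

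PHR1-type factors bind the P1BS motif, GNATATNC, which reads the same on both strands. In windows from 250 bases before to 50 bases after the annotated start (TAIR10.1), 1373 of 21831 tested genes held it (6.29%), against 12 of the 21 phosphate genes that fell (57.1%) and 3 of the 9 that rose (33.3%). Of all 51 phosphate genes tested 22 held it (43.1%). These lists hold known responders, so the share is a description of the lists. It does not separate fallen from risen members. IPS1 and MGD3, the phosphate genes with the largest falls, held no such motif in their windows. The windows of 3 fallen genes show where it sits, with the motif in capitals:
At4, chr5:894545-894574, plus strand: tttggtaattgGCATATTCcttttagaaga
SPX3, chr2:18606309-18606338, plus strand: gctaaagctaaGCATATCCgctttcatatt
PPSPASE1, chr1:27466547-27466576, minus strand: tttgggtaacgGAATATTCttctcttattc

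In At4 the motif begins 26 bases before the start, and in PPSPASE1 217 bases before it. SPX3 held 2 such motifs, and the one shown begins 90 bases before the start.

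Flavonoid and anthocyanin genes, which make pigments that accumulate in phosphate-starved plants, fell together. Of 13 tested, 9 fell, all of them over 2-fold, beside 2.46% of all genes. None rose by edgeR at an adjusted p under 0.1 or an unadjusted p under 0.05, nor by DESeq2. The median log2 fold change of the 13 was -1.63, against 0.01 for all genes. DFR, the enzyme at the entry to anthocyanins, was at 0.146 and 0.111 CPM in pho1-7 hpr1-6, against 2.69 and 1.39 CPM in pho1-7 (log2 fold change -3.96, standard error 0.85, adjusted p = 0.010). CHS, chalcone synthase, was at 0.117 and 0.238 CPM, against 2.08 and 1.33 CPM. F3'H and the anthocyanin glucosyltransferase UGT75C1 fell by 2.59 and 2.41 on the log2 scale. All levels named here were low, and the 2 samples of pho1-7 lay well apart. The count of fallen members ranged from 6 to 9 when single samples were left out. Of the Col-0 samples, DFR held 0.597 and 1.29 CPM and CHS 1.01 and 1.35 CPM, so the double mutant lay under Col-0 too. Only 1 of the 13 was called higher in pho1-7 than in Col-0, with a median log2 fold change of 0.45, beside 0.0062 for all genes. For pho1-7 hpr1-6 over Col-0 the median was -1.3, beside 0.00054 for all genes, and 5 were called lower. Leaf marker sums overlapped between the 2 genotypes, as given above.

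Glucosinolate genes, which make the sulfur-containing defence compounds of the cabbage family, also fell. Of 12 tested genes of the aliphatic pathway 9 fell, and of 13 of the indole pathway 8, beside 20.0% of all genes. None rose at an adjusted or unadjusted threshold by edgeR, and DESeq2 called 1 indole gene higher. The S-oxygenase FMOGS-OX1 was at 1.85 and 1.31 CPM in pho1-7 hpr1-6, against 6.08 and 4.85 CPM in pho1-7, the one aliphatic gene to fall over 2-fold. BASS5, a plastid carrier of the precursors, was at 61.8 and 52.8 CPM against 105 and 108 CPM. CYP79B3 and CYP79B2, which convert tryptophan to indole-3-acetaldoxime, were at 99.7 and 107 CPM against 241 and 227 CPM, and at 96.0 and 104 CPM against 205 and 200.1 CPM. MYB34, a regulator of the indole branch, was at 23.7 and 25.4 CPM in pho1-7 hpr1-6, against 46.8 and 50.6 CPM in pho1-7, and Col-0 held 51.9 and 53.4 CPM. In single-sample omissions the aliphatic count ranged from 8 to 11 and the indole count from 6 to 8, with 1 indole gene higher without pho1-7 hpr1-6 replicate 1. CYP79F2 has a near-identical neighbour, CYP79F1, and its fall of 0.82 on the log2 scale is uncertain for that reason. Sulfate genes moved the same way, with 8 of 11 lower and 1 higher, beside 20.0% and 21.2% of all genes. The sulfate transporter SULTR2;1 was at 7.71 and 9.87 CPM against 17.38 and 17.02 CPM in pho1-7, and LSU2, a marker of low sulfur, at 7.34 and 5.86 CPM against 12.3 and 11.5 CPM. The fallen sulfate genes numbered 5 without pho1-7 hpr1-6 replicate 2, where 2 were higher, and 4 without pho1-7 replicate 1. Without pho1-7 hpr1-6 replicate 1 or pho1-7 replicate 2, 0 were higher.

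Some genes that respond to sugar and energy status rose. DIN1, a gene switched on in the dark, was at 121 and 110.1 CPM in pho1-7 hpr1-6, against 22.97 and 14.6 CPM in pho1-7 (6.16-fold, adjusted p = 0.00017). DIN10, a raffinose synthase-like gene that sugar represses, was at 1114 and 1025 CPM, against 415 and 295 CPM. The sucrose carriers SUC1 and SWEET12 rose by 0.64 and 1.16 on the log2 scale. Of the 14 genes of the list 5 rose, beside 21.2% of all genes, and 5 were called in every single-sample omission too. Another 2 fell, SUS4 and BAM5, and 1 did so without pho1-7 hpr1-6 replicate 1 or without pho1-7 replicate 2. ASN1, an asparagine synthetase that sugar represses, was at 179.6 and 190.7 CPM in pho1-7 hpr1-6 and at 226 and 176 CPM in pho1-7 (adjusted p = 0.54). BAM5, a beta-amylase, was at 0.044 and 0 CPM in pho1-7 hpr1-6, against 0.264 and 0.351 CPM in pho1-7, and no fold is given at that level. In Col-0 DIN1 was at 18.8 and 14.4 CPM and DIN10 at 528 and 434 CPM, so the double mutant stood above both other genotypes.

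**Figure D4:**
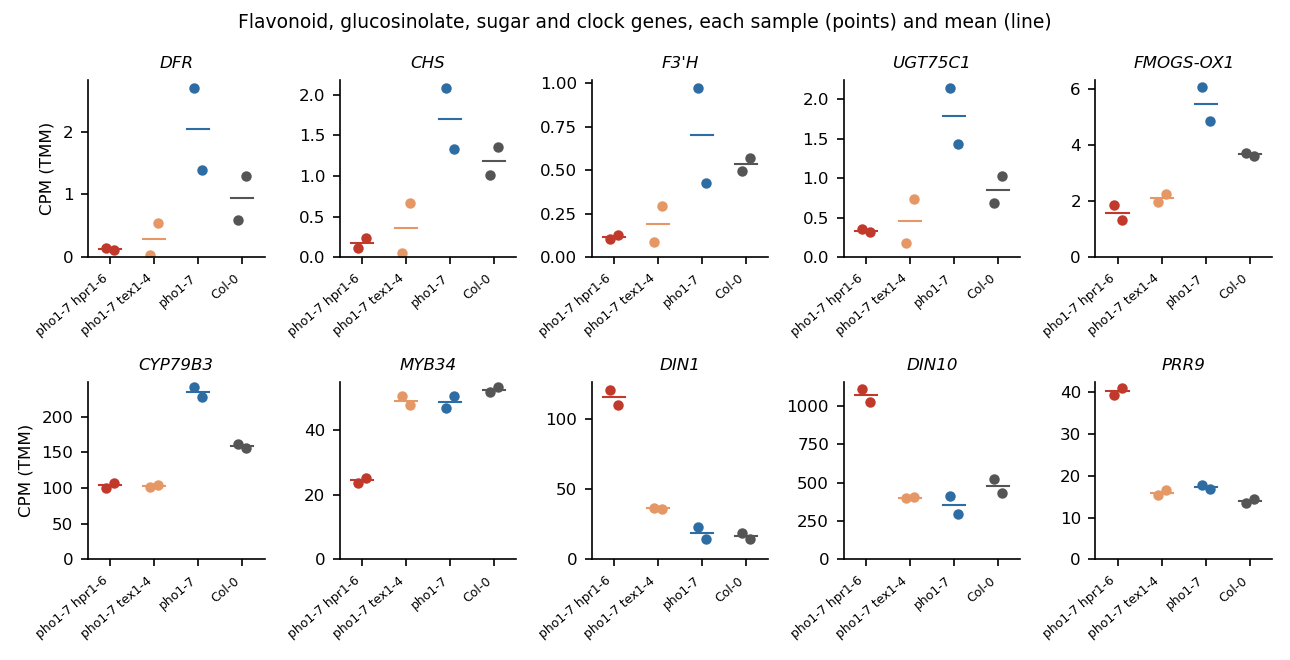
CPM of 10 genes in the 2 samples (points, mean as a line) of pho1-7 hpr1-6, pho1-7 tex1-4, pho1-7 and Col-0, with a vertical axis from 0 for each gene. The flavonoid and glucosinolate genes are lowest or near lowest in pho1-7 hpr1-6, MYB34 is low in that genotype alone, and DIN1, DIN10 and PRR9 are highest there.

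Clock genes shifted in both directions. The pseudo-response regulator PRR9 was at 39.4 and 41.0 CPM in pho1-7 hpr1-6, against 17.82 and 16.8 CPM in pho1-7 (2.32-fold, adjusted p = 9.4e-05), and GI at 32.9 and 30.99 CPM against 18.1 and 19.5 CPM. Of the 12 genes of the list 5 fell and 2 rose, beside 20.0% and 21.2% of all genes. The RNA-binding protein gene GRP7 fell most, to 384 and 372 CPM against 622 and 644 CPM. CCA1 and LHY, the morning factors, fell by 0.24 and 0.34 on the log2 scale. The hour of harvest is not given in the sources used here.

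The RNA-processing genes around HPR1 changed by less than 2-fold, HPR1 aside. Of 7 export partners of THO, 6 rose and 1 fell, beside 21.2% and 20.0% of all genes. The export adaptor ALY1 was at 167 and 159 CPM in pho1-7 hpr1-6, against 99.3 and 98.0 CPM in pho1-7, and the RNA helicase UAP56B at 211 and 228 CPM against 139 and 153 CPM. UAP56A and UAP56B are near-identical copies, so reads may have been split between them. MOS11, which binds UAP56, fell to 134 and 145 CPM, against 171 and 188 CPM. The count of risen partners ranged from 4 to 6 in single-sample omissions. Of the 8 THO genes, THO2 and THO7B rose and HPR1 fell. THO2 was at 132 and 129.6 CPM against 97.7 and 104 CPM, while THO7B rose by only 0.14 on the log2 scale, and without any 1 of the 4 samples 1 of the 2 rises remained called.

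Among 22 cleavage, polyadenylation and termination factors 5 rose and 6 fell, close to the share of all genes. FPA, an RNA-binding protein that acts on the choice of polyadenylation site, was the largest rise of the list, at 103 and 98.3 CPM in pho1-7 hpr1-6, against 60.9 and 61.7 CPM in pho1-7. The counts dropped to 2 higher without pho1-7 hpr1-6 replicate 2 or pho1-7 replicate 1, to 3 higher without pho1-7 hpr1-6 replicate 1, and to 3 lower without pho1-7 hpr1-6 replicate 2. Of 19 SR splicing factors 6 fell and 4 rose, beside 20.0% and 21.2% of all genes. RSZ21 fell most (32.8 and 29.5 CPM against 49.3 and 48.1 CPM), and RS31A rose most (8.63 and 9.09 CPM against 4.91 and 4.41 CPM). DCL1, which processes miRNA precursors, fell to 60.9 and 59.5 CPM, against 74.8 and 75.0 CPM in pho1-7. AGO1 was at 336 and 307 CPM and at 345 and 356 CPM (adjusted p = 0.26), and TAS3 at 13.9 and 12.4 CPM and at 13.5 and 13.2 CPM (adjusted p = 0.88). Of 5 tested precursors of trans-acting siRNAs only TAS1C was called, at 11.2 and 12.4 CPM against 7.45 and 8.46 CPM. RTE1, which acts on the ethylene receptor ETR1, fell to 7.69 and 7.99 CPM, against 10.7 and 10.1 CPM in pho1-7 (1.32-fold, adjusted p = 0.0071).

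Iron genes were mixed. The list counts of this paragraph stand beside 21.2% higher and 20.0% lower among all genes. VTL2, a vacuolar iron transporter-like gene, was at 40.8 and 30.3 CPM in pho1-7 hpr1-6, against 16.4 and 14.7 CPM in pho1-7. Of the 8 iron storage genes 4 rose and 2 fell. The falls were the ferritin genes FER1 and FER4, with log2 fold changes of -0.26 and -0.24 (edgeR adjusted p = 0.072 and 0.079). CYP82C4 and S8H, which hydroxylate coumarins, were at 28.1 and 15.0 CPM against 10.1 and 9.31 CPM, and at 28.6 and 18.4 CPM against 12.2 and 12.3 CPM. Both were far higher in Col-0, with 61.7 and 99.7 CPM for CYP82C4 and 64.7 and 90.3 CPM for S8H. Of 23 iron uptake and coumarin genes 9 rose and 5 fell, but only 4 rose without pho1-7 hpr1-6 replicate 1, 5 without pho1-7 replicate 1, and 3 fell without pho1-7 hpr1-6 replicate 2 or pho1-7 replicate 2. Of 20 jasmonate genes 7 fell, such as OPR3 (14.3 and 15.9 CPM against 24.9 and 22.7 CPM) and VSP1 (3.81 and 4.28 CPM against 6.43 and 8.20 CPM), and JAZ7 rose. The fallen jasmonate genes numbered 4 without pho1-7 hpr1-6 replicate 1 and 3 without pho1-7 replicate 1, and JAZ7 lost its call without replicate 2 of either genotype. Without pho1-7 hpr1-6 replicate 1, 4 jasmonate genes were higher. CYP71A12, of camalexin synthesis, was at 18.8 and 35.0 CPM against 4.86 and 6.23 CPM, and its samples spread widely. It lost its call without pho1-7 hpr1-6 replicate 2 (adjusted p = 0.11) and without pho1-7 replicate 1 (adjusted p = 0.12). Of families counted by name, 67 of 190 cytochromes P450 and 18 of 46 glutathione S-transferases fell, with 32 and 2 higher, beside 20.0% lower among all genes. Without pho1-7 replicate 2, 20 P450 genes were higher, and without replicate 1 of either genotype 1 of the 2 transferases.

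Regulator families were counted against the 21.2% higher and 20.0% lower among all genes. Of the WRKY factors 23 of 65 rose and 7 fell, of the NAC factors, to which NAP belongs, 30 of 81 rose and 11 fell, and of the MYB factors 11 of 90 rose and 23 fell. Without pho1-7 replicate 2, 4 MYB genes were higher. The WRKY rises numbered 12 without pho1-7 hpr1-6 replicate 2 and 13 without pho1-7 replicate 2, with 4 to 11 falls over the omissions, and the NAC rises 18 without pho1-7 hpr1-6 replicate 1, with 5 falls without replicate 2 of that genotype. EDS1, a regulator of immunity, was at 81.0 and 81.2 CPM in pho1-7 hpr1-6, against 64.0 and 58.3 CPM in pho1-7, and the salicylate receptor NPR1 at 75.7 and 72.6 CPM against 60.5 and 55.5 CPM. The list of salicylate and basal defence had 6 of 18 higher, 1 lower and 11 not called. Higher members numbered 2 without pho1-7 hpr1-6 replicate 2. Without pho1-7 replicate 2, 3 were higher and 3 lower, and in the other 3 omissions 0 were lower.

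Among the targets of miRNAs 7 of 38 rose and 11 fell, beside 21.2% and 20.0% of all genes, and 4 rose without pho1-7 replicate 1. APS4, an ATP sulfurylase and target of miR395, was at 303 and 255 CPM in pho1-7 hpr1-6, against 534 and 417 CPM in pho1-7, and AP2, a target of miR172, at 36.3 and 32.6 CPM against 58.4 and 59.5 CPM. AFB3, an auxin receptor targeted by miR393, rose to 74.5 and 75.9 CPM, against 53.3 and 57.1 CPM. SULTR2;1, described above, is also a miR395 target, so this list and the sulfate list share members.

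From smaller groups, single members are given. HRS1, a regulator that joins nitrate and phosphate signals, was at 280.2 and 238 CPM in pho1-7 hpr1-6, against 162 and 139 CPM in pho1-7 (adjusted p = 0.0012). IAA2, an auxin response repressor, was at 169 and 177 CPM against 110.3 and 108 CPM. Of the 24 Aux/IAA genes of its list 5 rose and 8 fell, beside 21.2% and 20.0% of all genes. Among the falls was IAA27 (log2 fold change -0.47, edgeR adjusted p = 0.0058). THAA1 and CYP708A2, of the root triterpenes, were at 3.28 and 2.57 CPM against 6.78 and 6.81 CPM, and at 7.76 and 7.73 CPM against 12.2 and 14.9 CPM. ABCG2, a transporter in suberin formation, rose to 28.9 and 27.7 CPM, against 17.9 and 16.4 CPM, while the fatty acyl reductase FAR5 fell to 19.0 and 21.8 CPM, against 34.8 and 31.6 CPM. KIN1, among the largest falls, and RD29B, at 0.923 and 0.776 CPM against 0.181 and 0.122 CPM, are both induced by abscisic acid and moved in opposite directions.

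**Figure D5:**
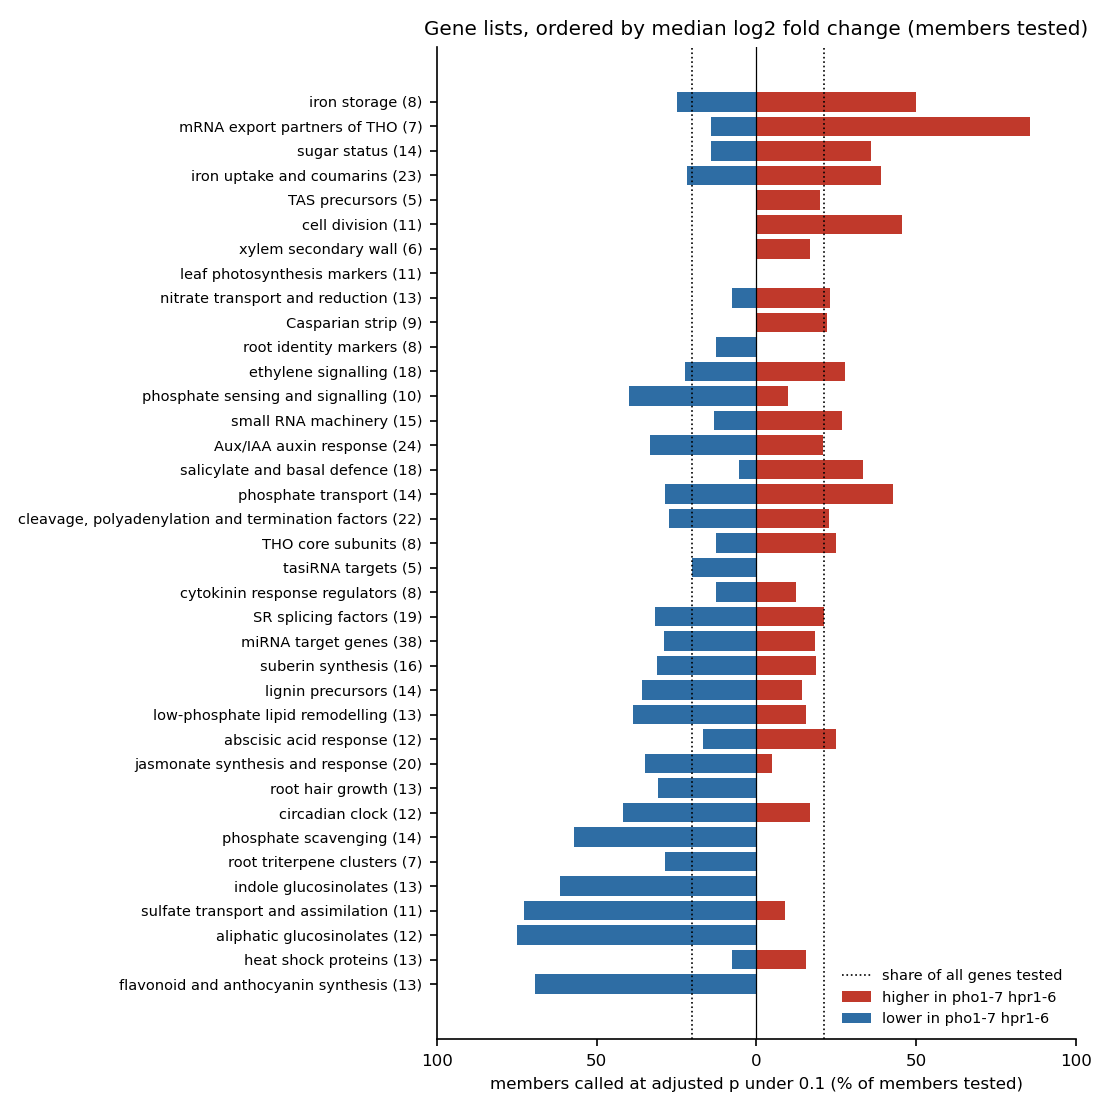
Share of the tested members of each of 37 gene lists (number tested in brackets) called higher, to the right in red, or lower, to the left in blue, in pho1-7 hpr1-6 against pho1-7, with dotted lines at the 21.2% and 20.0% of all genes. Flavonoid, glucosinolate, sulfate and phosphate scavenging genes reach farthest to the left and the export partners of THO farthest to the right.

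Since THO has been tied to the ending of transcripts, the neighbours of the changed genes were counted. Of 257 genes that rose over 2-fold and had a tested neighbour upstream on the same strand, 14 (5.45%) had an upstream neighbour that rose over 2-fold too, beside 2.74% over all 8359 such pairs. Of 237 genes that fell over 2-fold, 27 (11.4%) had a fallen neighbour, beside 2.62%. Genes close together often share regulation, so both directions are given. In the clearest rising pair, on chromosome 3, AT3G62460 and AT3G62455 lie 84 bases apart on the minus strand. AT3G62460 was at 10.7 and 10.27 CPM in pho1-7 hpr1-6, against 2.54 and 3.54 CPM in pho1-7, and AT3G62455 downstream of it at 10.27 and 10.35 CPM against 1.39 and 1.91 CPM. In 3 of the other 4 pairs of the rule both genes were at 2.2 CPM or less, and in the pair AT5G18633 and AT5G18636 the upstream gene reached 3.6 CPM.

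The authors also counted reads on 1462 extensions past the annotated ends of genes, a set they had assembled from these samples. Of 665 tested genes that lie next in line after a gene with such an extension, 30 (4.51%) rose over 2-fold and 26 (3.91%) fell, beside 2.95% and 2.74% of the 7694 genes after one without. At any size 20.6% rose and 24.5% fell, beside 21.9% and 20.3%. Over 2-fold both shares were above those of the other genes, and at any size the share of fallen genes was, but no test was made. In 2 of the genes with the smallest p-values the extension itself was high. By TAIR10.1, AT1G76570 starts 21 bases after CP12-3, a regulator of the Calvin cycle, on the same strand of chromosome 1. The study assembled its extensions between genes of another annotation release and kept only those too long for such a gap. The edges of these genes therefore differ between the 2 annotations, and the distances given here are those of TAIR10.1. The CP12-3 extension held 218 and 222 reads in pho1-7 hpr1-6, against 30 and 40 reads in pho1-7, and AT1G76570 was at 13.1 and 13.4 CPM against 4.16 and 4.00 CPM. CP12-3 itself rose by 0.48 on the log2 scale (edgeR adjusted p = 0.0075). AT5G59770 lies 651 bases after MYB59, whose extension held 498 and 451 reads against 145 and 162 reads, and AT5G59770 was at 35.3 and 29.7 CPM against 7.82 and 7.36 CPM. MYB59 itself rose by 0.80 on the log2 scale (edgeR adjusted p = 0.00095). Among the largest falls, AT4G19800 lies after ChiC, whose extension held 1 and 0 reads in pho1-7 hpr1-6, against 11 and 27 reads in pho1-7. ChiC itself had a log2 fold change of -1.1 (edgeR adjusted p = 0.0050). AT4G04410 lies after AT4G04409, whose extension held 53 and 39 reads against 79 and 73 reads. AT4G04409 itself had a log2 fold change of -0.93 (edgeR adjusted p = 0.12). The extension reads given here are not set relative to those of the upstream gene. Reads that run on from the upstream gene and reads that start in the downstream gene cannot be told apart in such counts. For CP12-3 (AT1G76560) the paper tested the 3' end apart from its neighbour, fused to a luciferase gene in leaf protoplasts. It reported a higher ratio of long to short transcripts in hpr1-6 and tex1-4 than in Col-0.

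Whether loss of HPR1 and loss of TEX1 act alike on the same background was read from the direct test between the 2 double mutants, whose samples do not include pho1-7. In it 3846 genes were higher and 4236 lower in pho1-7 hpr1-6 than in pho1-7 tex1-4, 17.5% and 19.3% of those tested, and over 2-fold 619 were higher and 279 lower, 2.82% and 1.27%. Single samples weighed heavily here. Without pho1-7 tex1-4 replicate 1, 2378 were higher and 1693 lower, and without pho1-7 hpr1-6 replicate 1, 2200 were lower. Without pho1-7 tex1-4 replicate 2, 2706 were lower. The genes of largest difference were high in pho1-7 hpr1-6. AT3G59940, a kelch-repeat protein gene, was at 106 and 91.3 CPM in pho1-7 hpr1-6, against 5.85 and 5.12 CPM in pho1-7 tex1-4, with 23.1 and 23.9 CPM in pho1-7 between them. OXS3, named for oxidative stress tolerance, was at 208 and 199 CPM against 19.7 and 15.2 CPM, and AT5G21940 at 467 and 474 CPM against 43.0 and 38.5 CPM. In the other direction AT1G61840, a C1-domain protein gene, was at 3.71 and 4.44 CPM in pho1-7 hpr1-6, against 31.2 and 34.6 CPM in pho1-7 tex1-4, and AT1G65370 at 14.4 and 15.1 CPM against 129.6 and 101 CPM.

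The genes that led the rise over pho1-7 fell into those that were as high in pho1-7 tex1-4 and those that were not. AT1G11070, AT5G59770 and AT3G62455 were at 13.6 and 14.3, 35.5 and 32.3, and 12.5 and 13.1 CPM in pho1-7 tex1-4, levels close to those in pho1-7 hpr1-6. NAP, DIN1 and GAT1_2.1 were at 24.9 and 22.6, 36.7 and 36.3, and 35.5 and 32.4 CPM there, and each was higher in pho1-7 hpr1-6 by the direct test, by 2.02, 1.66 and 2.44 on the log2 scale. PRR9 (15.4 and 16.6 CPM in pho1-7 tex1-4) and GDPD2 (154 and 120.1 CPM) were higher in pho1-7 hpr1-6 as well, by 1.33 and 1.35. MYB34 was lower by 1.00, since pho1-7 tex1-4 held 50.7 and 47.8 CPM. CYP79B3 (102 and 104 CPM in pho1-7 tex1-4) did not pass the direct test (log2 difference 0.01, adjusted p = 0.89), nor did DFR (0.0354 and 0.546 CPM, adjusted p = 0.34), whose samples of pho1-7 tex1-4 were far apart. PHO2 was lower in pho1-7 hpr1-6 than in pho1-7 tex1-4, which held 168 and 173 CPM (log2 difference -1.44, adjusted p = 1.7e-05), and SPX1 was higher by 1.19, against 20.7 and 16.9 CPM.

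AT2G34210, an SPT5-like elongation factor gene, joined those differences. It starts 833 bases after the miR399f sequence on the same strand of chromosome 2. MIR399f itself had 0 and 1 reads in pho1-7 hpr1-6, 0 and 1 in pho1-7, and 0 in each sample of pho1-7 tex1-4 and Col-0. Whether the 2 genes move together can therefore not be read from these counts. AT2G34210 was at 5.42 and 6.34 CPM in pho1-7 hpr1-6, against 0.337 and 0.587 CPM in pho1-7 tex1-4, and at 9.53 and 9.36 CPM in pho1-7 and 0.0995 and 0.0767 CPM in Col-0. Its order over the 4 genotypes was the reverse of that of PHO2.

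The plate experiment, in which TEX1 was lost in an otherwise wild-type plant, shares no sample with this comparison, but it differs in the mutated subunit, the PHO1 background, the age and the medium. Of the 509 genes tested in both that rose over 2-fold in pho1-7 hpr1-6, 124 (24.4%) also rose over 2-fold in tex1-4 on plates, which is 29.1% of the plate list of 426, beside 2.00% called higher there among the 21264 genes tested in both and 2.33% among all genes tested on plates. Of 431 that fell, 128 (29.7%) also fell, 20.4% of the plate list of 627, beside 2.95% of the genes tested in both and 3.09% of all tested on plates. The median plate change of the risen genes was 0.43 and of the fallen genes -0.56 on the log2 scale, and that of all genes 0.01. Named genes of both lists were AT3G62455 (plate log2 fold change 1.88), AT1G11070 (1.07), AT4G36980 (-1.07), LAS1 (-2.14), CYP76G1 (-2.44) and AT4G04410 (-2.58). NAP, GAT1_2.1 and AT5G66650 had plate log2 fold changes of 0.56, -0.55 and 0.23.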

How the data were processed

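Root RNA was sequenced from strand-specific libraries. The deposited values are raw read counts per gene and, for pots, per 3' extension. Reads had been aligned to TAIR10 by HISAT2 and assigned by HTSeq (versions and the strand setting of the counting are not given in the sources used here). Reads assigned to no gene, 17.1% to 18.0% of reads in the 4 samples, were left out. Samples were grouped by their labels. edgeR 4.0.16 (R 4.3.3; filterByExpr, TMM, quasi-likelihood test, Benjamini-Hochberg) was fitted on the 8 pot samples together, and separately on the 6 plate samples. A gene was called at an adjusted p under 0.1, the threshold the study set for extensions. The standard error is the log2 fold change divided by the square root of F. Alternatives were DESeq2 1.42.0, RLE size factors, other filters, an adjusted p under 0.05, only the 4 samples, a replicate block and omission of each replicate.

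Named genes were the mutated genes, the 10 largest changes each way (over 2-fold, at least 5 CPM in the higher group, samples not overlapping), the 5 smallest p each way, up to 4 members per direction of 37 lists with a few fixed members, the 5 largest differences each way from pho1-7 tex1-4 and up to 5 neighbouring pairs. The members and lists were chosen with earlier results of these data known. Names, positions and sequences are those of RefSeq's TAIR10.1, which matched 97.7% of the genes in the files, and of the study's primer list. On simulated counts for this comparison (21818 genes) the test called 30 of 50 genes changed 1.5-fold, 39 of 50 changed 2-fold and 48 of 50 changed 4-fold, with 19 false calls among 182. Far fewer genes were changed in the simulation than were called in the data, so its Benjamini-Hochberg cut-off was stricter. The rates are therefore not those of the comparison itself. Summaries and figures were made in Python 3.11.15.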

Additional observations from a re-analysis of the deposited data

Results flagged for a closer look

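The difference between the 2 double mutants was tested directly, and 10 genes were set aside for the size of that difference (pho1-7 hpr1-6 minus pho1-7 tex1-4, log2 scale, edgeR). AT3G59940 differed by 4.18, TEX1 by 3.94, AT2G34210 by 3.60, OXS3 by 3.55 and AT5G21940 by 3.53. On the lower side AT4G04223 differed by -3.34, AT4G04410 by -3.12, AT1G61840 by -3.02, AT1G65370 by -2.97 and AT1G59860 by -2.34. TEX1 is the gene mutated in pho1-7 tex1-4, so its difference is a check of the labels. AT1G59860, a small heat shock protein gene, was at 2.27 and 5.10 CPM in pho1-7 hpr1-6, against 29.4 and 8.31 CPM in pho1-7 tex1-4, and its call was lost without pho1-7 hpr1-6 replicate 1 (log2 difference -1.86) and without pho1-7 tex1-4 replicate 1 (-1.18). The non-coding RNA AT4G04223 was at 0.923 and 1.36 CPM in pho1-7 hpr1-6, against 12.6 and 10.4 CPM in pho1-7 tex1-4.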

How the results depend on the processing

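No called direction reversed under any alternative. With only genes of at least 1 CPM in 2 samples, which tests fewer genes, the genes higher over 2-fold than in pho1-7 numbered 394, those lower over 2-fold than in pho1-7 tex1-4 159, and those shared with the plates 48 higher and 81 lower. At an adjusted p under 0.05, 2769 genes were lower than in pho1-7 tex1-4. Leaving out single replicates gave 3557 to 3956 genes higher and 3178 to 3756 lower than in pho1-7 (over 2-fold 524 to 634 and 434 to 621), 2378 to 3341 higher and 1693 to 3104 lower than in pho1-7 tex1-4 (over 2-fold 544 to 633 and 217 to 334), and 104 to 128 higher and 96 to 143 lower shared with the plates. HPR1 stayed between -1.59 and -1.49 and PHO1 between 0.51 and 0.69 on the log2 scale. The labels number the replicates without saying what a number shares. Same-numbered samples of pho1-7 hpr1-6 and pho1-7 had a correlation of deviations of 0.234 across genes (0.0164 against pho1-7 tex1-4), which 2 pairs cannot settle. With the replicate block, 4330 genes were higher and 4057 lower than in pho1-7. Of 218 results for named genes, 29 lost their call in at least one alternative that kept all samples, and 72 when omissions of a replicate are counted. In the simulation, which changed far fewer genes than were called in the data, 1.5-fold changes were often missed. With 2 samples a genotype, a gene not called is not shown to be the same.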

Other observations

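FLC, the repressor of flowering, was singled out after its values were seen, as a gene low in both experiments. It was at 0 and 0.0951 CPM in pho1-7 hpr1-6, against 0.346 and 1.22 CPM in pho1-7, with 0 and 0.0101 CPM in pho1-7 tex1-4 and 0.611 and 0.522 CPM in Col-0. On plates it was at 0.00909, 0.00925 and 0 CPM in tex1-4, against 0.344, 0.233 and 0.163 CPM in Col-0. The samples of the THO mutants did not overlap those of their controls in either experiment, and no fold is given because the THO mutant samples were at or near 0. GSTF12, a glutathione S-transferase that moves anthocyanins to the vacuole, was chosen in the same way. It was at 0.0733 and 0.206 CPM in pho1-7 hpr1-6, against 1.55 and 0.763 CPM in pho1-7, and on plates at 0.736, 0.795 and 0.660 CPM in tex1-4, against 2.15, 2.01 and 1.98 CPM in Col-0.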
